A study of Mus musculus with 8 samples.

Results

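Primary mouse follicular cells that had received siRNA against Foxl2 and vehicle were compared with cells that had received control siRNA and 17β-estradiol (E2). Each side was measured on 2 arrays, so the difference rests on 4 of the 8 arrays of the series. The filter on signal and the spread behind the p-values came from all 8 arrays. Within each array number the sides were also subtracted from each other. The cells were grown from preantral follicles, each replicate from the ovaries of 5 pooled Swiss females of 8 weeks, and were labelled as mostly granulosa cells. In all groups the cells were kept in hormone-free medium, with charcoal-treated serum and without androstenedione, for the last days of culture, and they were transfected with 12 pmol of siRNA together with a plasmid for a red fluorescent protein. The siRNA acted for 24 h, which the sample labels count up to lysis and the study's text up to the addition of hormone. Vehicle or 100 nM E2 was added 10 h before lysis, at 9 days of culture. The FOXL2 siRNA vehicle group thus carried the knockdown label without added E2, and the control siRNA E2 group carried the hormone without the knockdown label. The other crossed comparison, FOXL2 siRNA with E2 against control siRNA with vehicle, used the remaining 4 arrays and shared no array with the first. Of 24232 genes on the array, 15637 had a median scaled signal of at least 10 and were tested. Next to that limit, Cd247 was inside at 10.01 and Sult6b1 was outside at 9.98.

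FOXL2 is a forkhead transcription factor of granulosa cells, the somatic cells that surround the oocyte, convert androgens into estrogens and nurse oocyte growth. In the adult ovary it is known to maintain granulosa identity and to keep genes of Sertoli cells, the supporting cells of the testis, such as Sox9, at a low level. E2 acts on these cells through the nuclear receptors ESR1 and ESR2, of which ESR2 is the form that granulosa cells make most of. A comparison that sets siRNA without E2 against E2 without siRNA holds both differences at the same time, and it cannot tell them apart on its own.

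The cells were first checked against marker lists. Of 13 granulosa cell markers, 11 were above the signal limit and 10 were well above background on all 8 arrays, whereas Amh and Fshr lay under the limit. Of 15 oocyte markers on the array, 4 were above the limit, and the summed scaled signal of these lay between 184 and 274 on all 8 arrays. The share of probes well above background ran from 51.4 to 55.7% over the arrays, and the correlation of a group's replicates across genes from 0.989 to 0.992. As the samples are bulk RNA, fewer cells of a type and less RNA per cell cannot be told apart.

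The gene named in the siRNA label was not lower in this comparison when its probes were averaged. That average is linear, so it follows the brighter probe almost alone and is not a separate result. Foxl2, averaged over its probes, had a log2 scaled signal of 13.41 and 13.39 on the arrays labelled FOXL2 siRNA with vehicle, and of 12.94 and 12.76 on those labelled control siRNA with E2. The groups did not overlap, with the higher level under the FOXL2 siRNA label, by 0.55 on the log2 scale (SE 0.15, limma adjusted p = 0.0871). Both Foxl2 probes were well above background on all arrays, but they differed in direction. The bright probe A_55_P2037732 read 14.40 and 14.39 against 13.93 and 13.75, a difference of 0.56 (SE 0.15, adjusted p = 0.108). The dim probe A_55_P2041668 read 5.82 and 5.47 against 6.76 and 6.35, a difference of -0.91 (SE 0.27, adjusted p = 0.148). On the dim probe the 4 arrays labelled FOXL2 siRNA lay between 5.47 and 6.03, all below the 4 labelled control siRNA, which lay between 6.35 and 7.00. Neither probe passed the threshold, so the group is called by its label throughout.

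**Figure D1:**
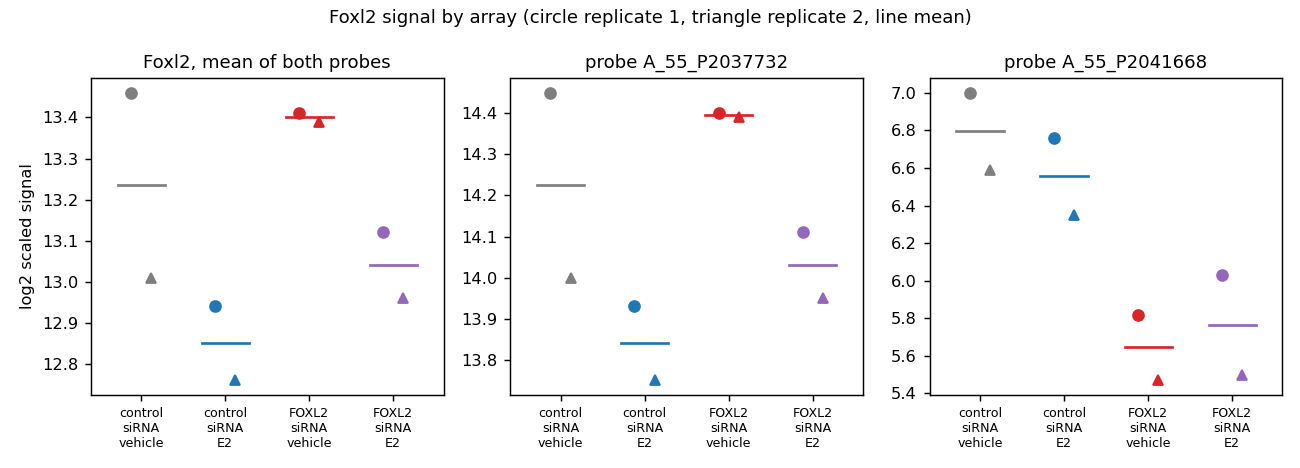
Log2 scaled signal of Foxl2 on each of the 8 arrays, as the mean of its probes (left) and for each probe (middle and right), with groups along the x axis, circles for replicate 1, triangles for replicate 2 and lines for group means. The bright probe is higher with FOXL2 siRNA and vehicle (14.40 and 14.39) than with control siRNA and E2 (13.93 and 13.75), and the dim probe is lower (5.82 and 5.47 against 6.76 and 6.35).

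The hormone label also needs a remark before directions are given. The study describes Hsd11b2, Tacc1, Angpt2 and Cbs as genes that E2 activates in these cells, whereas on the arrays as labelled each was lower with E2 than with vehicle under control siRNA. Hsd11b2, which encodes an enzyme that inactivates glucocorticoids, read 5.27 and 4.27 with control siRNA and E2 but 7.21 and 6.99 with control siRNA and vehicle. Cbs, an enzyme that makes cystathionine from homocysteine, read 7.04 and 7.49 with E2 but 9.32 and 9.41 with vehicle. Under FOXL2 siRNA each of these genes was higher with E2 than with vehicle by group mean. The means there were 8.02 against 6.72 for Cbs and 5.70 against 3.77 for Angpt2. For Hsd11b2 they were 4.55 against 3.36, and for Tacc1 8.82 against 8.26. If the labels of the 2 control siRNA groups had been exchanged, the comparison described here would be the knockdown with vehicle on both sides. Whether they were exchanged was not tested, and all directions below follow the labels.

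Between the arrays labelled FOXL2 siRNA vehicle and control siRNA E2, 731 of 15637 genes passed an adjusted p of 0.05, which is 4.67% of the genes tested. Of these, 418 were higher with FOXL2 siRNA and vehicle (2.67%) and 313 were lower (2.00%). All 731 moved in the same direction within array number 1 and within array number 2, and their groups did not overlap, as was the case for 50.9% of all genes tested. The size of the difference had a median of 0.887 on the log2 scale among the genes called. It reached at least 1 in 309 of them and at least 2 in 62. The median over all genes tested was 0.03. Nearly all calls, 696 of 731, rested on genes well above background on all 4 arrays, and 23 had a side on which no array was well above background. The number of calls rested on single arrays, with 135 genes called without replicate 1 of control siRNA E2, 150 without replicate 2 of FOXL2 siRNA vehicle, 226 without replicate 2 of control siRNA E2 and 300 without replicate 1 of FOXL2 siRNA vehicle. Nothing in the labels says that same-numbered samples shared animals or a day, and p-values measure the spread between 2 samples per group.

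**Figure D2:**
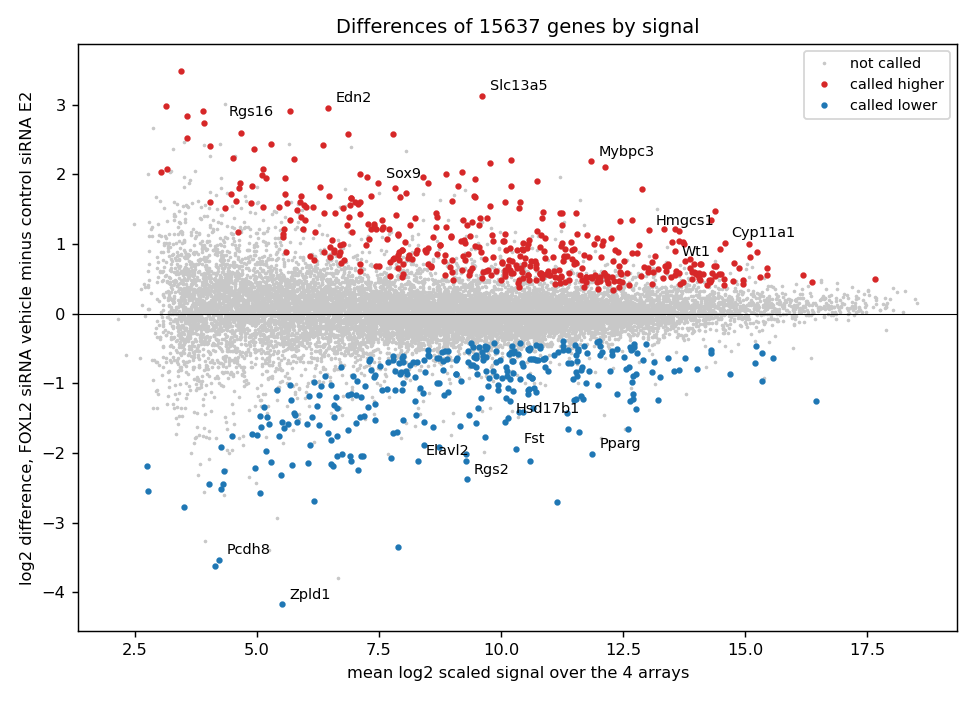
Log2 difference, FOXL2 siRNA vehicle minus control siRNA E2 (y axis), against the mean log2 scaled signal over the 4 arrays (x axis) for the 15637 genes tested. Red points are the 418 genes called higher, blue points the 313 called lower and grey points those not called, and named genes such as Slc13a5 (3.13) and Zpld1 (-4.17) lie at the edges.

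Among genes well above background on all 4 arrays, the citrate transporter gene Slc13a5 had the largest increase. It read 11.39 and 10.97 with FOXL2 siRNA and vehicle, against 8.20 and 7.91 with control siRNA and E2. The sides lay far apart, with a difference of 3.13 (SE 0.24, adjusted p = 0.00177), or 8.74-fold. Edn2, which encodes the vasoactive peptide endothelin 2 made by granulosa cells around ovulation, read 8.08 and 7.80 against 4.79 and 5.17. Its difference was 2.96 (SE 0.24, adjusted p = 0.00189), or 7.79-fold. Rgs16, a regulator of G-protein signalling, followed with readings of 7.14 and 7.14 against 4.06 and 4.40 and a difference of 2.91 (SE 0.28, adjusted p = 0.00323). For these 3 genes the replicates of a side lay much closer together than the sides. The alkaline ceramidase gene Acer1 and the small muscle protein gene Smpx both differed by 2.58, at 6-fold and 5.99-fold. The remaining genes of the 12 with the largest increases were Gcnt1 (2.44), a glycan branching enzyme, Plxna4 (2.42), a semaphorin receptor, Sowahd (2.22), Robo4 (2.20), a guidance receptor of endothelium, Mybpc3 (2.19), a cardiac myosin-binding protein, Msln (2.16), a surface protein of mesothelium, and Cryab (2.10), a small heat shock protein. Of these 12 genes, 8 were called whichever single array of the series was left out.

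Among the decreases of genes well above background on all 4 arrays, several exceeded 2 on the log2 scale. Itga2, the collagen-binding integrin subunit, read 4.78 and 4.89 with FOXL2 siRNA and vehicle against 7.21 and 7.83 with control siRNA and E2, a difference of -2.69 (SE 0.35, adjusted p = 0.00789). Rgs2, another regulator of G-protein signalling, read 8.28 and 7.93 against 10.31 and 10.66, a difference of -2.38 (SE 0.20, adjusted p = 0.00189). Elavl2, an RNA-binding protein, shared the lowest adjusted p of all genes tested with other genes. Its arrays read 7.24 and 7.25 against 9.35 and 9.36, a difference of -2.11 (SE 0.12, adjusted p = 0.00103). Other genes among the 12 with the largest decreases were the ubiquitin ligase gene Rnf144a (-2.31), Fam13a (-2.24), Lzts1 (-2.19), the cation channel gene Trpa1 (-2.17), the keratin gene Krt23 (-2.14), Rgs4 (-2.12), the spindlin family gene Spin2c (-2.12) and the receptor phosphatase gene Ptprz1 (-2.11). Of these 12 genes, 5 were called whichever single array of the series was left out.

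**Figure D3:**
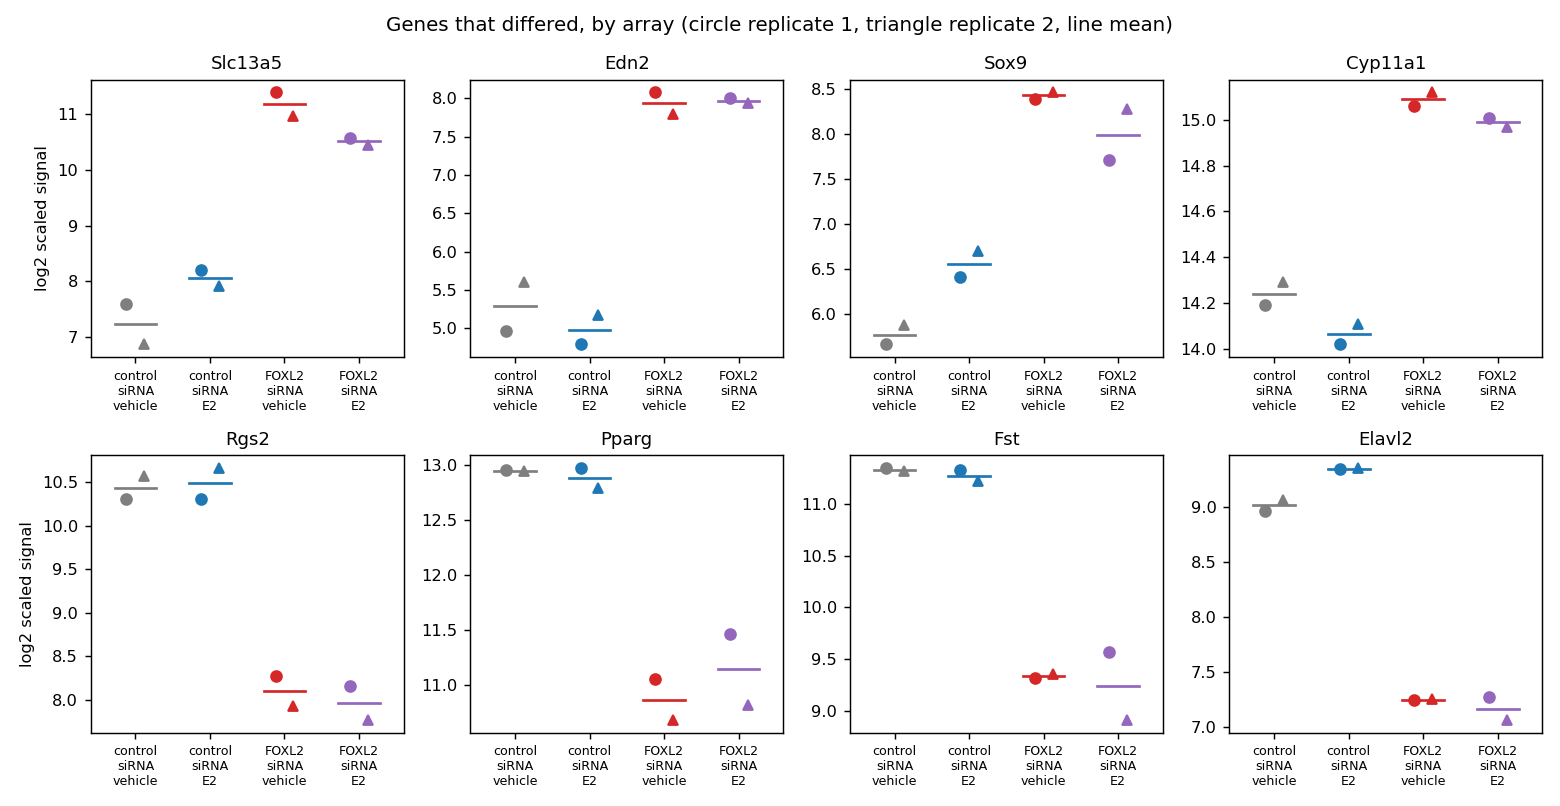
Log2 scaled signal (y axis, not starting at 0) of 8 genes on each of the 8 arrays, with groups along the x axis, circles for replicate 1, triangles for replicate 2 and lines for group means. In all 8 genes the FOXL2 siRNA vehicle arrays lie clear of the control siRNA E2 arrays, above them for Slc13a5, Edn2, Sox9 and Cyp11a1 and below them for Rgs2, Pparg, Fst and Elavl2, and the FOXL2 siRNA E2 arrays lie on the same side of the control siRNA vehicle arrays.

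Some genes were not well above background on either array of a group, and for them a bound is given, or the measured fold where both are equal. Gata1, a transcription factor of blood cells that Sertoli cells also make, was at least 7.58-fold higher with FOXL2 siRNA and vehicle (adjusted p = 0.00433), where it read 4.90 and 5.49. Asb12 was at least 6.4-fold higher (adjusted p = 0.0219), the G-protein subunit gene Gnb3 at least 6.24-fold (adjusted p = 0.0118) and Afap1l2 at least 5.69-fold (adjusted p = 0.0426). In the other direction, the protocadherin gene Pcdh8 read 11.6-fold lower (adjusted p = 0.00427), with readings of 6.14 and 5.85 under control siRNA and E2. Luzp4 was at least 6.22-fold lower (adjusted p = 0.0095). The angiopoietin gene Angpt2 read 5.95-fold lower (adjusted p = 0.0168) and the metalloprotease gene Adamdec1 5.75-fold (adjusted p = 0.00673). For Pcdh8, Angpt2 and Adamdec1 the bound equalled the measured fold, so it is no lower limit on the difference.

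Genes that the study names as FOXL2 targets from other arrays lay largely on opposite sides of 0, the activated ones lower and the repressed ones higher with FOXL2 siRNA and vehicle. Of 211 FOXL2-activated genes tested, 96 were lower with FOXL2 siRNA and vehicle, 1 was higher and the rest did not pass, so that 45.5% were lower against 2.00% of all genes. Their median difference was -1.03, and 204 of the 211 had a negative sign. Of 130 FOXL2-repressed genes tested, 74 were higher, 0 were lower and the rest did not pass, so that 56.9% were higher against 2.67% of all genes. Their median difference was 1.27, and all 130 had a positive sign. Within array number 1 the medians were -0.91 and 1.25, and within array number 2 they were -1.13 and 1.25. The lists were made by the same laboratory with siRNA against Foxl2, so they share the siRNA target though not the samples. They came from NimbleGen arrays of cells in medium with androstenedione, part of them with siRNA against nuclear receptors as well. As used here the lists held 214 and 132 genes. The number of activated genes called lower was 27 without replicate 1 of control siRNA E2, 37 without replicate 2 of that group and 27 without replicate 2 of FOXL2 siRNA vehicle, and with the same arrays left out the number of repressed genes called higher was 30, 40 and 35. It was 41 without replicate 1 of FOXL2 siRNA vehicle, and normexp background correction brought the median differences to -0.68 and 0.88. The summed signal of 10 surface epithelium markers was also higher with FOXL2 siRNA and vehicle, at 48364 and 45115 against 29405 and 28847. Most of this linear sum came from Wt1 and Krt18, and the part of these markers in the counts was not tested.

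Zpld1, which encodes a zona pellucida domain protein, was among the FOXL2-activated genes with the largest decreases. It read 4.28 and 2.56 with FOXL2 siRNA and vehicle, where it was well above background on 1 array, and 8.07 and 7.13 with control siRNA and E2. The difference was -4.17 (SE 0.60, adjusted p = 0.0102), in which the reading of 2.56 is not well above background. Pcdh8 and Luzp4 were also among the largest decreases in this list. Slc51a, a subunit of a bile acid and steroid transporter, was the exception in direction, at 6.16 and 6.03 against 4.82 and 5.10, a difference of 1.14 (SE 0.25, adjusted p = 0.0445). Its call was lost when any of 6 single arrays was left out. Among the FOXL2-repressed genes of the list used, Slc13a5, Edn2, Afap1l2 and Nkain3 were among those with the largest increases, the last at 5.98 and 5.99 against 3.20 and 3.57, a difference of 2.60 (SE 0.28, adjusted p = 0.00409).

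**Figure D4:**
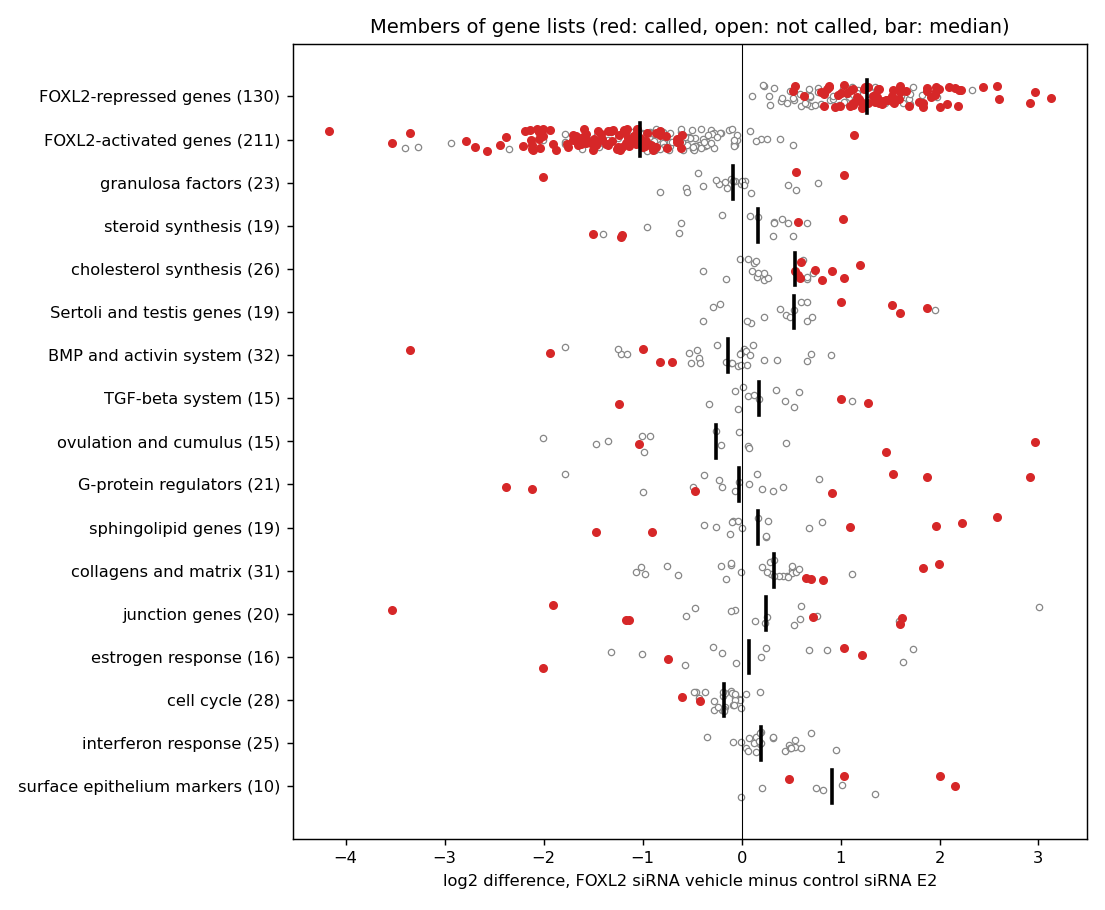
Log2 difference, FOXL2 siRNA vehicle minus control siRNA E2 (x axis), of each tested member of 17 gene lists (y axis, with the number of members tested), with called genes in red, others open and a bar at the median. The FOXL2-repressed genes lie above 0 (median 1.27), most FOXL2-activated genes below it (median -1.03), and no other list has more than 9 called genes.

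Since forkhead factors bind a core that reads GTAAACA, the promoters of the genes called were searched for it on both strands, in RefSeq windows of build GRCm38.p6 that ran from 250 bases before to 50 bases after the first listed start of each gene. Of 11589 tested genes with such a window, 283 held the core, or 2.44%. It was held by 8 of 231 genes called lower (3.46%) and by 2 of 308 genes called higher (0.649%), so 10 genes that differed had it and the great majority did not. The windows of those genes in which the core lay before the start are shown because they are the called genes with this sequence near the start site, with the core in capitals, 5′ to 3′ on the gene's strand. TGTTTAC is the same core on the other strand. A match is a description and not a measured binding site. The study's own FOXL2 binding data from these cells gave a broader motif than this core. Its binding peaks were enriched within the transcribed span of activated targets, mostly introns, and not around the start sites of its targets.
Col6a1, higher, chr10:76726232-76726272, minus strand: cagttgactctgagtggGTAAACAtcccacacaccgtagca
Ccnd3, higher, chr17:47504801-47504831, plus strand: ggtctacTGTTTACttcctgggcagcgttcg
Btg1, lower, chr10:96616780-96616820, plus strand: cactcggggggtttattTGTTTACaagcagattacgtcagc
Etl4, lower, chr2:20289664-20289704, plus strand: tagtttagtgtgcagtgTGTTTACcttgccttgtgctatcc
Cacfd1, lower, chr2:27009806-27009846, plus strand: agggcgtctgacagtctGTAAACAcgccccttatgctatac
Rassf6, lower, chr5:90640735-90640775, minus strand: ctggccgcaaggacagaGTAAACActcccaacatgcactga
Ccdc30, lower, chr4:119415703-119415743, minus strand: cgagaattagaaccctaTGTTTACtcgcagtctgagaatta
Tmsb15l and Tmsb15b1, lower, chrX:136976993-136977033, minus strand: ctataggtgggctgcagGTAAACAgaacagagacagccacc

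Of these genes, Rassf6, a member of a family of RAS-binding proteins, fell by 2.18 (SE 0.43, adjusted p = 0.0308). Tmsb15l and Tmsb15b1, which belong to the thymosin family, fell by 2.05 (SE 0.23, adjusted p = 0.00461) and by 1.77 (SE 0.34, adjusted p = 0.0306) respectively. They are listed with the same start site and are near copies, so their signals may not be separable. Col6a1, a chain of collagen VI, rose by 1.83 (SE 0.21, adjusted p = 0.00503), whereas Ccnd3, a cyclin of the first growth phase, rose by 0.51 (SE 0.08, adjusted p = 0.0118). Btg1, Etl4, Cacfd1 and Ccdc30 fell by 0.65, 0.96, 0.66 and 0.98. The full palindromic estrogen response element was found on either strand in 2 of the 11589 windows (0.0173%) and in 0 of the windows of genes called. The site of the nuclear receptors NR5A1 and NR5A2, CAAGGTCA on either strand, was in 1.14% of all windows, in 4 of 308 of the genes called higher (1.30%) and in 0 of 231 called lower.

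Of all genes tested, 4.67% were called, 2.67% higher and 2.00% lower, and each list count below stands beside these shares. The lists below share called members with the lists of FOXL2 targets, among them Fst, Pparg, Gja1, Rgs2, Fos and Edn2. Their counts are thus not separate from the counts of FOXL2 targets given above, and the part of this overlap in them was not tested. The other lists held 371 different tested genes, of which 74 were called. The number was 23 without replicate 1 of control siRNA E2, 26 without replicate 2 of FOXL2 siRNA vehicle, 36 without replicate 2 of control siRNA E2 and 41 without replicate 1 of FOXL2 siRNA vehicle, so the counts of each list below rest on all 4 arrays. Transcription factors and receptors of granulosa cells gave few calls, 3 of 23 tested, with a list median of -0.09. Pparg, a nuclear receptor that falls in granulosa cells at ovulation, read 11.05 and 10.68 with FOXL2 siRNA and vehicle, against 12.97 and 12.79 with control siRNA and E2. Its difference was -2.01 (SE 0.21, adjusted p = 0.00336). Wt1, a zinc finger factor of gonadal somatic cells, rose by 1.03 (SE 0.10, adjusted p = 0.00323), from 13.00 and 12.97 to 14.13 and 13.91. Gata4, a GATA factor of the same cells, rose by 0.55 (SE 0.12, adjusted p = 0.0466) and lost its call when any of 6 single arrays was left out. The receptors through which E2 acts did not pass. Esr2 read 11.27 and 11.37 against 11.71 and 11.70, a difference of -0.39 (SE 0.13, adjusted p = 0.162). Esr1 was dim, at 4.10 and 4.13 against 4.23 and 4.31, a difference of -0.15 (SE 0.27, adjusted p = 0.818). Nr5a2, a nuclear receptor that drives luteinisation genes, read 11.46 and 11.25 against 10.63 and 10.54, so that the groups did not overlap, but the difference of 0.77 (SE 0.18, adjusted p = 0.0526) did not pass either. Nr5a1 (0.03), Nr2c1 (-0.01) and Nr2c2 (0.00) gave adjusted p from 0.886 to 0.993, and Pgr lay under the signal limit.

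Steroid hormone synthesis genes were called in both directions, 2 of 19 higher and 3 lower, beside 2.67% and 2.00% of all genes. Their median was 0.17. The side-chain cleavage enzyme gene Cyp11a1, which makes pregnenolone from cholesterol, read 15.06 and 15.12 with FOXL2 siRNA and vehicle, against 14.02 and 14.11 with control siRNA and E2. This was a difference of 1.02 (SE 0.08, adjusted p = 0.00177). Fdxr, which passes electrons to that enzyme, rose by 0.57 (SE 0.10, adjusted p = 0.021). Hsd17b1, which makes E2 from estrone, fell by 1.50 (SE 0.26, adjusted p = 0.0191), from 11.05 and 10.75 to 9.66 and 9.15. Hsd3b6 and Akr1c14, both dehydrogenases of steroids, fell by 1.22 (SE 0.22, adjusted p = 0.0228) and by 1.21 (SE 0.18, adjusted p = 0.0118) respectively. Star, the cholesterol carrier of the mitochondrion, differed by 0.47 and aromatase, Cyp19a1, by -0.61, and neither passed (adjusted p = 0.313 and 0.379). Cyp19a1 was dim, at 4.37 and 3.69 against 4.45 and 4.84, and well above background on 1 array with FOXL2 siRNA and vehicle. Within array numbers 1 and 2 it differed by -0.07 and -1.15, so the lack of a call says little about it.

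Cholesterol and fatty acid synthesis leaned to higher levels with FOXL2 siRNA and vehicle. Of 26 genes tested, 9 were higher, beside 2.67% of all genes, and 0 were lower, and the median was 0.54 against 0.03 over all genes. Hmgcs1, which starts the mevalonate pathway, read 13.58 and 13.67 against 12.33 and 12.52, a difference of 1.20 (SE 0.14, adjusted p = 0.00503). Idi1 (1.03), Fdft1 (0.91), Mvd (0.81), Sqle (0.74), Fdps (0.57) and Pmvk (0.54), all enzymes of the path to cholesterol, were among the others called, as was the fatty acid desaturase gene Scd1 (0.59). The count was 0 and 3 without replicate 1 or 2 of control siRNA E2, and 4 and 1 without replicate 1 or 2 of FOXL2 siRNA vehicle.

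Genes of Sertoli cells and testis gave 4 calls of 19 tested, all higher, beside 2.67% of all genes. Sox9, the factor that directs Sertoli cell fate, read 8.39 and 8.46 with FOXL2 siRNA and vehicle, against 6.41 and 6.70 with control siRNA and E2, a difference of 1.87 (SE 0.21, adjusted p = 0.00439). Sox8, its close relative, read 7.70 and 7.36 against 6.01 and 6.00, a difference of 1.52 (SE 0.18, adjusted p = 0.00545). Cst8, a cystatin of the reproductive tract, rose by 1.60 (SE 0.21, adjusted p = 0.00739), and Dhh, a hedgehog ligand of Sertoli and granulosa cells, by 1.00 (SE 0.14, adjusted p = 0.00994). The list median was 0.53. Dmrt1, another factor of the male gonad, differed by -0.22 and Amh lay under the signal limit. Dhh was the single called gene of the 10 hedgehog pathway genes tested, and the receptor gene Ptch1 differed by 0.08.

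In the bone morphogenetic protein (BMP) and activin system 5 of 32 genes were lower, beside 2.00% of all genes, and 0 were higher. Fst, the follistatin that binds activin, read 9.32 and 9.36 against 11.33 and 11.22, a difference of -1.94 (SE 0.19, adjusted p = 0.00323). The ligand gene Bmp6 fell by 1.00 (SE 0.18, adjusted p = 0.0254), the receptor gene Acvr1b by 0.70 (SE 0.13, adjusted p = 0.0281) and the BMP-responsive gene Id3 by 0.82 (SE 0.15, adjusted p = 0.023). The activin and inhibin subunit genes Inhba (0.02), Inha (0.23) and Inhbb (0.66) did not pass. Grem1, a secreted BMP antagonist, differed by -1.78 with an SE of 0.61 and did not pass (adjusted p = 0.166). Of 15 genes of the TGF-beta system, 2 were higher and 1 lower, beside 2.67% and 2.00% of all genes. Tgfb2, a ligand, rose by 1.28 (SE 0.14, adjusted p = 0.00374). Ccn2, a matrix protein that TGF-beta induces, rose by 1.00 (SE 0.15, adjusted p = 0.0116). Thbs1, which can activate the latent ligand, fell by 1.24 (SE 0.11, adjusted p = 0.00252).

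Some signalling lists had called members in both directions, beside 2.67% of all genes called higher and 2.00% called lower. Of 21 G-protein regulators, 4 were higher and 3 lower. Beside Rgs16 the higher ones were the adenosine receptor genes Adora1 (1.87) and Adora2b (1.53) and Rgs3 (0.91), and beside Rgs2 and Rgs4 the lower one was Rgs10 (-0.47). In sphingolipid metabolism 4 of 19 were higher and 2 lower. Smpd3, a sphingomyelinase, rose by 1.96 (SE 0.20, adjusted p = 0.00345) and Ugcg, which makes glucosylceramide, by 1.10 (SE 0.13, adjusted p = 0.00503). Of the receptors for sphingosine phosphate, S1pr5 read 4.69-fold higher (adjusted p = 0.0308), whereas S1pr1 fell by 1.47 (SE 0.15, adjusted p = 0.00323). S1pr5 was not well above background on either array with control siRNA and E2. The ceramide synthase gene Cers5 fell by 0.91 (SE 0.12, adjusted p = 0.00673).

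Of 15 genes of ovulation and cumulus expansion, Edn2 and the protease gene Adamts1 were higher, the latter at 11.55 and 11.61 against 10.07 and 10.19, a difference of 1.46 (SE 0.09, adjusted p = 0.00127). Has2, which makes the hyaluronan of the cumulus matrix, fell by 1.04 (SE 0.23, adjusted p = 0.0487) and lost its call when any of 6 single arrays was left out. Ereg (-2.01) and Ptgs2 (-1.35), an EGF-like ligand and a prostaglandin synthase, did not pass (adjusted p = 0.104 and 0.0972). Among 19 immediate early genes, Fos fell by 1.35 (SE 0.20, adjusted p = 0.011) and Klf2 by 0.63, while Klf4 (0.89), Dusp1 (0.59), Klf6 (0.43) and Jund (0.41) rose. Klf6 lost its call when any of the 8 arrays was left out, and Jund and Klf2 when any of 6 was.

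Collagens and matrix genes gave 5 higher of 31 tested, beside 2.67% of all genes, and 0 lower, with a median of 0.33. Both collagen VI chains tested, which are encoded side by side, were among them, with Col6a2 at 1.99 (SE 0.34, adjusted p = 0.0191) and Col6a1 as given above. Col5a2 (0.82), Col16a1 (0.70) and Col3a1 (0.65) were the others. Of 20 junction genes, 3 were higher and 4 lower, beside 2.67% and 2.00% of all genes. Gja1, the main gap junction protein between granulosa cells, read 8.06 and 7.47 against 9.98 and 9.38, a difference of -1.91 (SE 0.33, adjusted p = 0.0203). The protocadherin genes Pcdh8, Pcdh7 (-1.17) and Pcdh18 (-1.14) were lower, whereas the cadherin genes Cdh3 (1.62) and Cdh2 (0.72) and the adhesion gene Jam2 (1.60) were higher. Cdh2 and Jam2 lost their calls when any of 6 single arrays was left out.

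Glutathione and methionine metabolism gave 2 higher and 1 lower of 21 tested, beside 2.67% and 2.00% of all genes. The glutathione transferase genes Gstm2 and Gstm1 rose by 1.34 (SE 0.22, adjusted p = 0.0171) and by 1.21 (SE 0.21, adjusted p = 0.0207), and as close relatives their probes may not separate them. Cdo1, which oxidises cysteine, fell by 2.05 (SE 0.38, adjusted p = 0.025). Of 20 genes of the ER stress and amino acid response, Vldlr (-1.13) and Slc3a2 (-0.86) were lower, beside 2.00% of all genes. Cell cycle genes gave 2 lower of 28, beside 2.00% of all genes. They were Foxm1 (-0.60) and Cenpa (-0.42), and each of these lost its call when any of the 8 arrays was left out. None of 25 interferon response genes was called, and their median was 0.20.

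The genes with which the study followed E2 were then set beside the list of classical estrogen response genes. The first list was chosen on these arrays and is not independent of them. Angpt2 was called lower, with 3.67 and 3.87 under FOXL2 siRNA and vehicle against 6.51 and 6.17 under control siRNA and E2. Tacc1, a centrosomal protein gene, read 8.45 and 8.07 against 8.93 and 9.07 without overlap, a difference of -0.74 (SE 0.20, adjusted p = 0.0944). Cbs read 6.73 and 6.70 against 7.04 and 7.49, a difference of -0.55 (SE 0.17, adjusted p = 0.136). Hsd11b2 read 2.71 and 4.02 against 5.27 and 4.27, a difference of -1.40 (SE 0.53, adjusted p = 0.208), and was well above background on 1 of the arrays with FOXL2 siRNA. By group mean, all 4 genes were lowest in the FOXL2 siRNA vehicle group of the 4 groups, and 1 passed the test of this comparison. Of 16 classical estrogen response genes tested, 2 were higher and 2 lower, beside 2.67% and 2.00% of all genes, with a median of 0.07. Susd3 (1.22) and Stc2 (1.04) were higher, and Cited1 (-2.01) and Nrip1 (-0.74), both transcriptional coregulators, were lower. Greb1, a gene widely used as a readout of estrogen receptors, differed by -1.01 and did not pass.

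The crossed comparison on the other 4 arrays, FOXL2 siRNA with E2 minus control siRNA with vehicle, gave 762 calls (4.87% of the genes tested), 395 higher (2.53%) and 367 lower (2.35%). This count was 136 without replicate 2 of FOXL2 siRNA E2 and 181 without replicate 2 of control siRNA vehicle. The hormone enters this comparison with the opposite sign and the siRNA label with the same sign. Of the 731 genes called in the first comparison, 727 had the same sign in the second, or 99.5%, against 71.4% of all genes tested. Both called 545 genes, all in the same direction, which is 74.6% of the first list and 71.5% of the second. The genes called higher in the first comparison had a median of 0.87 there and 0.79 in the second, and those called lower had -0.91 and -0.86. Across the 15637 genes, which are not independent replicates, these differences of group means correlated at 0.69. Those within array numbers 1 and 2 of the first comparison correlated at 0.56. The latter rest on 1 array per side and the former on 2, so the correlations cannot be ranked against each other. The FOXL2-activated list gave 116 lower genes of 211 in the second comparison, with a median of -1.11, and the FOXL2-repressed list 75 higher of 130, with a median of 1.26.

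**Figure D5:**
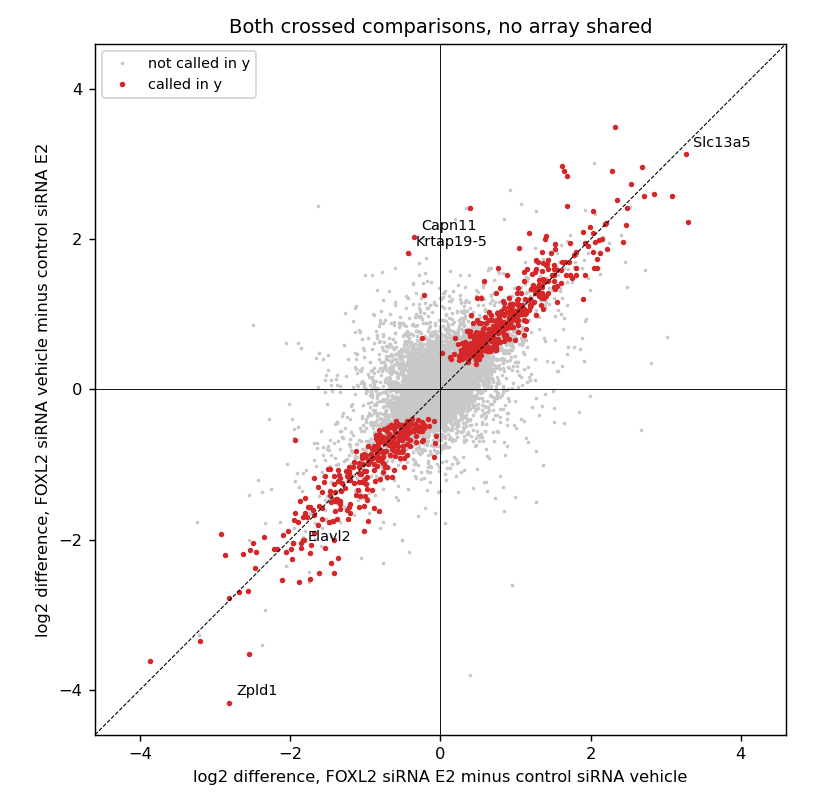
Log2 difference, FOXL2 siRNA vehicle minus control siRNA E2 (y axis), against the log2 difference, FOXL2 siRNA E2 minus control siRNA vehicle (x axis), for the 15637 genes tested, with the 731 genes called in the first in red and the line of equal values dashed. The red points follow the dashed line, 727 of them with the same sign on both axes, while Capn11 (2.03 and -0.35) and Krtap19-5 (1.81 and -0.43) lie to the left of it.

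The difference between these 2 differences was tested for each gene in the same limma fit. It equals minus the sum of the E2 effects under both siRNAs, so effects of opposite sign cancel in it. By group mean, Cbs was lower with E2 under control siRNA (7.26 against 9.37) but higher under FOXL2 siRNA (8.02 against 6.72). For this reason the test cannot show that E2 made no difference. The contrast passed for 0 of 15637 genes at an adjusted p of 0.05, with 360 genes at an unadjusted p under 0.05 and a lowest adjusted p of 0.0681. The 4 genes called in the first comparison with the opposite sign in the second were all higher in the first. Capn11, a calpain protease gene, read 10.27 and 10.16 with FOXL2 siRNA and vehicle but 8.15 and 8.23 with control siRNA and E2, and it read 8.62 and 8.42 with FOXL2 siRNA and E2 but 9.16 and 8.58 with control siRNA and vehicle. Its differences were 2.03 (SE 0.18, adjusted p = 0.00252) and -0.35 (SE 0.18, adjusted p = 0.385). They lay 2.37 apart (SE 0.26, adjusted p = 0.11), with the FOXL2 siRNA vehicle arrays above all others. Krtap19-5, a hair keratin-associated protein gene, showed the same order, at 8.75 and 8.72 with FOXL2 siRNA and vehicle and between 6.73 and 7.88 on the other 6 arrays. Its differences were 1.81 and -0.43, which lay 2.24 apart (SE 0.34, adjusted p = 0.626). Kif19a, a kinesin gene, had differences of 0.69 and -0.24, and the gene with Entrez number 545198 had 1.26 and -0.22. Among the genes singled out by size, Fam13a was called in the first comparison but not in the second (-1.36, adjusted p = 0.186), and the difference itself, -0.88, gave an adjusted p of 1. Afap1l2 (1.64 in the second, adjusted p = 0.215) and Gnb3 (1.69, adjusted p = 0.072) were also called in the first alone. In all, 186 of the 731 genes called in the first comparison were not called in the second.

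Markers of other cells that the culture could hold moved with the siRNA label in part. The counts below stand beside 2.67% of all genes called higher and 2.00% called lower. Of 10 surface epithelium markers tested, 4 were higher with FOXL2 siRNA and vehicle, Msln, Muc16 (2.00), Wt1 and Krt18 (0.48), and Wt1 is also a granulosa marker. The median of this list was 0.91 and its summed scaled signal was 48364 and 45115 with FOXL2 siRNA and vehicle against 29405 and 28847 with control siRNA and E2, and 42428 and 44522 with FOXL2 siRNA and E2 against 28801 and 25487 with control siRNA and vehicle. The sums of the arrays labelled FOXL2 siRNA lay above all others. Of 11 theca and stroma markers 2 were higher, Cyp11a1 and Aldh1a1 (0.50, a call lost when any of 6 single arrays was left out), with sums of 287216 and 316012 against 195694 and 221817. Of 5 endothelium markers Robo4 was called, with sums of 5100 and 3976 against 2163 and 1628, whereas Pecam1 differed by 0.18, and Cdh5, Tek and Tie1 lay under the signal limit. These sums are linear and follow their bright members. Aldh1a1, at 17.82 and 17.99 against 17.31 and 17.49, made most of the theca and stroma sums. Robo4 made most of the endothelium sums with FOXL2 siRNA and vehicle. The study also lists Robo4 and Msln among its FOXL2 targets. None of 8 macrophage markers and none of 4 oocyte markers was called, and the macrophage sums were 2073 and 2310 against 1931 and 1984. The granulosa markers were called in both directions, with 3 of 11 lower and 2 higher, and their sums were 109687 and 109965 against 80298 and 86840. The part of these markers in the other differences was not tested.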

How the data were processed

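RNA of 8 samples, in 4 groups of 2 named by siRNA and treatment in the sample titles, was hybridised to one-colour Agilent arrays, each labelled from 50 ng of total RNA. The deposited scanner files hold spot intensity values from Agilent Feature Extraction, which the authors' software had corrected for background. The authors also deposited a table of log2 values, scaled by array at the 75th percentile. It equalled the intensities used here within 0.001 at 98.7 to 98.9% of values per array once a constant was taken off. It was not centred over arrays, and whether a further median was subtracted stays unknown. Column medians ran from -4.244 to -3.952.

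Of 62976 spots, 3671 controls were left out, as were 42 non-uniform probes, which left 55639 probes. Each array was divided by its 75th percentile, between 275.1 and 367.5, and set to a common level of 319.9. Probes of an Entrez gene were averaged on the linear scale, and a RefSeq table named 22349 of 24232 genes. Genes whose median scaled signal reached 10 over the arrays were kept. Arrays carry no read depth, and their number limits the precision. Their number per group, 2, is too small for a check of outlying samples.

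Log2 values were fitted as 4 group means over the 8 arrays with limma 3.58.1 in R 4.3.3, with a spread that follows intensity, 4 residual degrees of freedom, two-sided tests and Benjamini-Hochberg adjustment at 0.05 over the 15637 genes. The comparison of both differences was a contrast in the same fit. On simulated data the fit was checked before use. A gene not well above background on either array of a group was given a bound, which is the mean of the bright group against the mean, per dim array, of the higher of the gene's own signal and the lowest signal among probes well above background. Genes were named as Foxl2 and nuclear receptors, up to 12 higher and 12 lower by size among called genes with no overlap that were well above background on all 4 arrays and had an ordinary symbol, up to 4 in each direction with a bound, and up to 4 called members in each direction per list. List members without a call, the genes with a forkhead core and the 4 genes with opposite signs were named after their values were seen. A few of the genes so chosen are left out of the text. The members, lists and rules were chosen with earlier results of these data known. Older symbols were matched through RefSeq synonyms. Alternatives were a replicate block, other scalings, filters, probe summaries and background correction, the deposited log2 table, the methods' target rule and leaving out each array. The normexp correction used the median spot signal in place of the mean. Tables and plots used Python 3.11.15, pandas 2.3.3, numpy 2.4.6 and matplotlib 3.10.9.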

Additional observations from a re-analysis of the deposited data

How the results depend on the processing

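With 2 arrays per group, leaving out 1 leaves a lone sample, which is assumed to vary like the other groups. For FOXL2 siRNA vehicle minus control siRNA E2, 731 genes were called. A replicate block gave 2710, among them all 731, no filter on signal 456, no intensity trend 408 and the methods' target rule, which has no p-value, 371. Leaving out 1 array gave 135 to 733. The other 7 settings gave 641 to 771. For FOXL2 siRNA E2 minus control siRNA vehicle, 762 were called, against 2521 with the replicate block, 458 with no filter, 399 with no trend, 271 when only the groups compared were fitted and 355 by the target rule. Leaving out 1 array gave 136 to 557, with 373 without replicate 1 of control siRNA vehicle, 452 without replicate 1 of FOXL2 siRNA E2, and 469 and 471 without replicates 1 and 2 of control siRNA E2. The other 6 settings gave 689 to 828. The difference between both gave 8 calls with the replicate block, 0 to 1 with 1 array left out and 0 otherwise, and it could not be fitted on 1 pair of groups. Same-numbered samples deviated together across genes (correlations of 0.327 to 0.445 over 6 group pairs), but the labels do not say whether a number marks shared animals or a day. The cause of these shifts was not tested.

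Of the 102 named genes that were called, 32 kept their call whichever array was left out and 62 kept it under the other 10 settings. None of the 102 changed sign under these settings. Among genes not called, Esr1 differed by 0.14 with normexp, Nr5a1 by -0.01 with quantile normalization, -0.03 with normexp and -0.08 to 0.14 without 1 array, Nr2c1 by 0.06 with the brightest probe and -0.02 to 0.01 without 1 array, and Nr2c2 by -0.01 with the deposited table and with median centring, -0.02 with normexp, and -0.16 to 0.17 without 1 array. Of the 371 genes of the other lists, 74 were called, against 174 with the replicate block, 53 with no filter and 43 with no trend. The median over all genes stayed between -0.01 and 0.05 under all scalings.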
